A study of Mus musculus with 29 samples.

Results

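The expression of 8 genes of myoblast fusion and cell adhesion was described in C2C12 cells, a mouse myoblast line, after transfection of 7 microRNA mimics. The genes were Mymk and Mymx, whose products fuse the membranes, the cadherin genes Cdh15 and Cdh2, the co-receptor genes Cdon and Boc, the adhesion molecule gene Ncam1, and Myof, a ferlin gene. They were named as a list from their known roles, with earlier results of these data known. Each was read from the probe set that carries its symbol alone. Where several do, the probe set with the highest mean over the 27 transfected arrays was used. All 8 were measured, each by 1 such probe set, among 19938 genes in all.

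Each of 7 groups of proliferating cells had received a synthetic mimic of miR-22, miR-1, miR-365, Let-7b, miR-145, miR-34a or miR-29a, and the control group had received AllStar, a negative control oligonucleotide. Cells of all these groups were at passage 27. They were transfected with 50 nM of the oligonucleotide, using the reagent Hiperfect in DMEM with 10% FBS. Total RNA was taken after 36 h. A mimic is added from outside the cell, and all cells came from 1 line, which limits these groups as a model of muscle. Each microRNA had 3 arrays from independent experiments. The control had 3 arrays with a technical repeat of each, used as 3 values. Untransfected cells had 1 array as wild type proliferating myoblasts and 1 array as terminally differentiated myotubes. The values are log2 intensities after RMA (a background correction and normalization across arrays), so 1 unit is a 2-fold difference. Arrays had medians between 7.24 and 7.39, and probe sets without a listed gene had a median of 6.67, which serves here as the level of no clear signal. The precision is limited by the number of arrays.

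Skeletal muscle forms when myoblasts leave the cell cycle, recognise and adhere to each other, and merge into multinucleated fibres. Cadherins hold the neighbouring cells together, Cdon and Boc sit beside them and pass the contact on to the differentiation programme, and the membrane proteins myomaker (Mymk) and myomerger (Mymx) then carry out the fusion itself. Ncam1 is a cell surface adhesion molecule of the immunoglobulin family, and Myof encodes myoferlin, a calcium-binding membrane protein of myoblasts that takes part in fusion and membrane repair. In a bulk RNA sample, fewer cells that express a gene and less of its RNA per cell cannot be told apart.

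A microRNA pairs with messenger RNAs mainly through its seed, bases 2 to 8 from the 5′ end. The mature forms of 5 of the mimics, from RefSeq (GRCm38.p6), are shown to let the 5 seeds be compared. The labels do not name the arm, so the arm commonly taken as the guide is printed, with the seed in capitals.
mmu-miR-34a-5p: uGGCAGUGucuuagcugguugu
mmu-miR-22-3p: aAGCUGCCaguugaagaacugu
mmu-miR-365-3p: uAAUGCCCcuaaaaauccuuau
mmu-miR-29a-3p: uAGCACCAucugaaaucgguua
mmu-let-7b-5p: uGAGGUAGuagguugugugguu
All are 22 bases long, and the 5 seeds are all different. They lie at chr4:150068473-150068494 on the plus strand (miR-34a), chr11:75463772-75463793 on the plus strand (miR-22), chr11:79726467-79726488 on the plus strand (miR-365), chr6:31062673-31062694 on the minus strand (miR-29a) and chr15:85707325-85707346 on the plus strand (Let-7b). The remaining mimics were miR-1 and miR-145.

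The first question was which of the 8 genes changed in proliferating myoblasts under each mimic. Of 56 pairs of a gene and a microRNA, 17 were higher and 2 lower than the control (limma, Benjamini-Hochberg adjusted p under 0.05). Cdh2 rose under all 7 microRNAs, Mymk under miR-1, miR-34a and miR-22, Mymx under miR-34a and miR-22, and Ncam1 under miR-1, miR-365 and miR-29a. Boc rose under miR-1 and fell under miR-365, and Myof rose under miR-1 and fell under miR-145. The changes were small: Mymx under miR-22 had the largest fold of the 19, 1.94-fold. Cdh15 and Cdon did not pass under any microRNA. The p-values set each difference against the spread of these samples within their groups, pooled over the 8 transfected groups.

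Under miR-1, 5 of the 8 genes passed and all 5 were higher, where 13.2% of all genes were higher and 10.5% lower. Under miR-34a 3 passed, all higher, against 5.62% of all genes higher and 6.06% lower, and under miR-22 3 passed, all higher, against 8.82% and 5.67%. Under miR-365 2 were higher and 1 lower, against 11.7% and 8.33%. Under miR-29a 2 passed, both higher, against 5.54% and 4.78%. Under miR-145 1 was higher and 1 lower, against 3.85% and 3.00%, and under Let-7b 1 was higher, against 5.46% higher and 5.46% lower. Cdh2, which passed under every microRNA, was the only one of the 8 genes that passed under Let-7b. In a model with a block for replicate number, 4 of the 8 passed there, and 3298 of all genes passed, against 2177 without the block. After group means were taken out, the same-numbered Let-7b and control samples correlated with an r of 0.137, 0.082 and 0.120. With a block for replicate number, the count of all genes that passed under miR-29a was 3142, against 2058 without it. The median difference of the 8 genes was 0.37 under miR-1, where that of all genes was −0.00, and 0.20 under miR-29a and 0.17 under miR-34a, where those of all genes were 0.01 and 0.02. It was 0.15 under miR-22, 0.04 under miR-145, 0.03 under miR-365 and −0.03 under Let-7b, where the medians of all genes lay from −0.01 to 0.04.

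**Figure D1:**
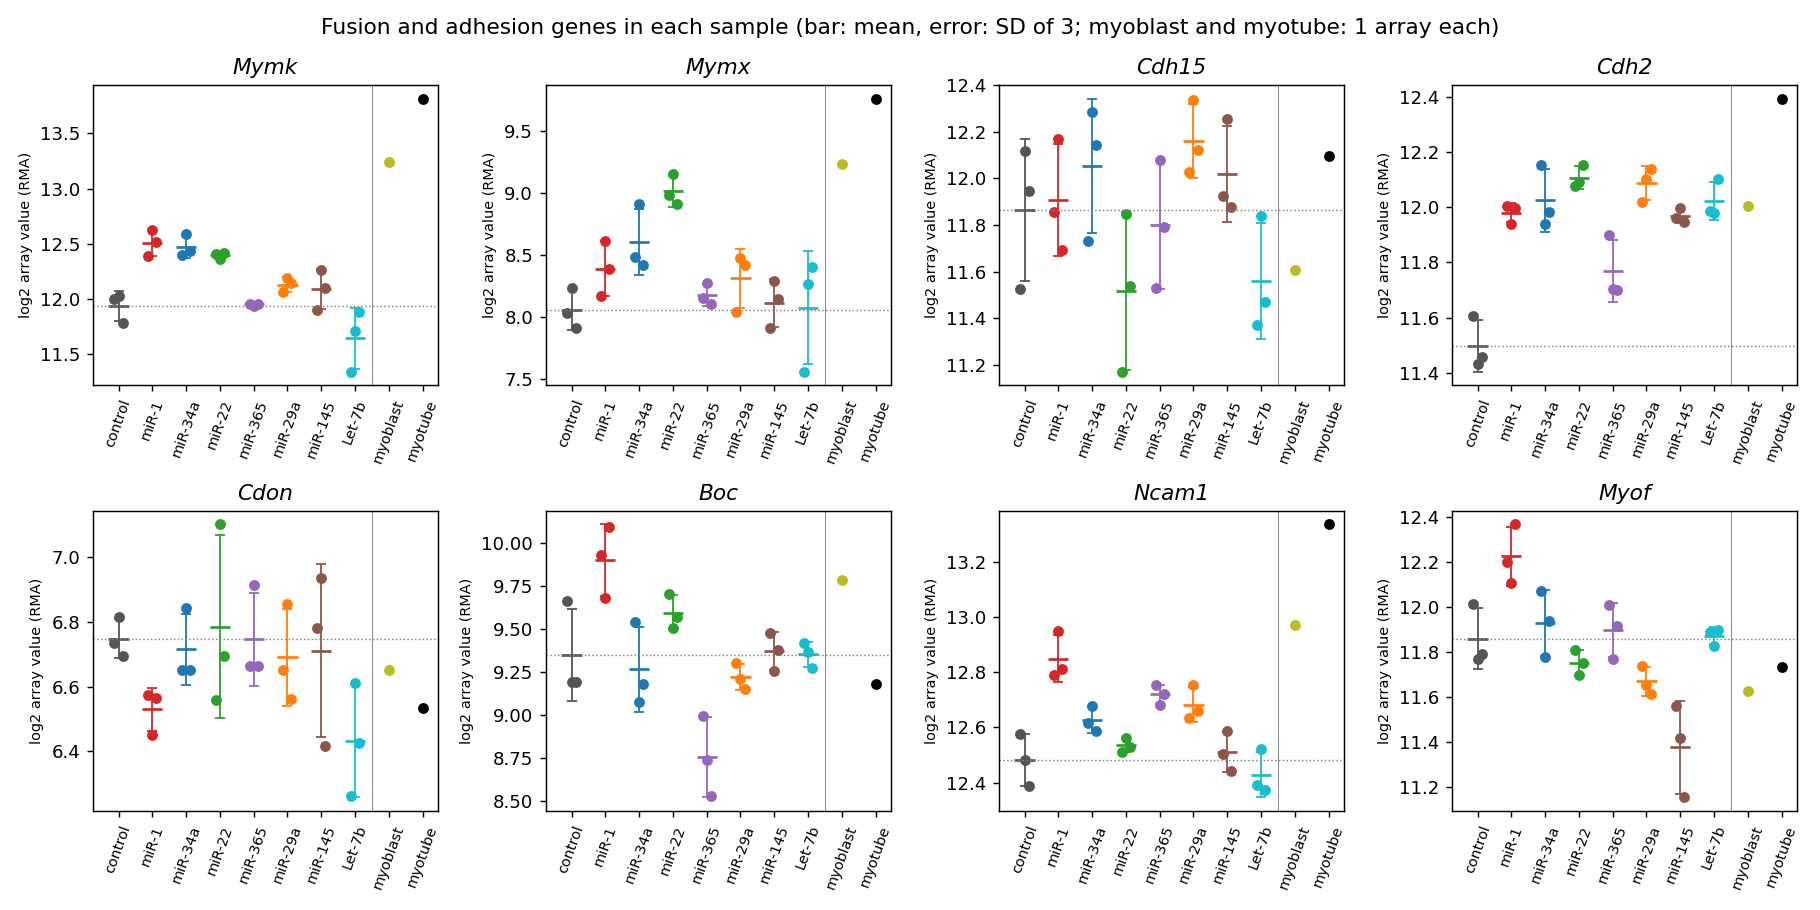
Log2 array value (vertical axis) of each of the 8 genes in every sample, with 1 panel for a gene, 1 colour for a group, a bar for the mean and an error bar for the SD of 3 values; the dotted line is the control mean, and the myoblast and myotube arrays stand alone on the right. All values of Cdh2 under the 7 microRNAs lie above the 3 control values, whereas those of Cdh15 spread widely within each group.

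All comparisons with the control use the same 3 control values, so the 7 results for 1 gene are not independent of each other. A second set of comparisons, of each microRNA with the mean of the other 6, uses no control array. Of its 56 pairs 14 passed. The genes that passed there numbered 4 under miR-1 (28.7% of all genes), 1 under miR-34a (14.1%), 2 under miR-22 (15.8%), 3 under miR-365 (27%), 2 under miR-145 (18.8%) and 2 under Let-7b (18.5%). Under miR-29a 0 of the 8 passed (17.1% of all genes) by limma, and 3 had an unadjusted p under 0.05. Blocked by replicate number, limma passed 2 there, Cdh15 (0.35, adjusted p = 2.4e-04) and Myof (−0.17, adjusted p = 0.0297). The block likewise added Cdh15 under miR-34a (0.23, adjusted p = 0.0135) and Ncam1 under miR-365 (0.11, adjusted p = 0.0149). Under miR-22 it added Cdh15 (−0.40, adjusted p = 6.8e-05), Cdh2 (0.13, adjusted p = 0.0372), Boc (0.28, adjusted p = 0.00832) and Ncam1 (−0.10, adjusted p = 0.0417). Over the 8 transfected groups together, limma's F test passed 7 of the 8 genes, all but Cdon, and 49.4% of all genes.

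**Figure D2:**
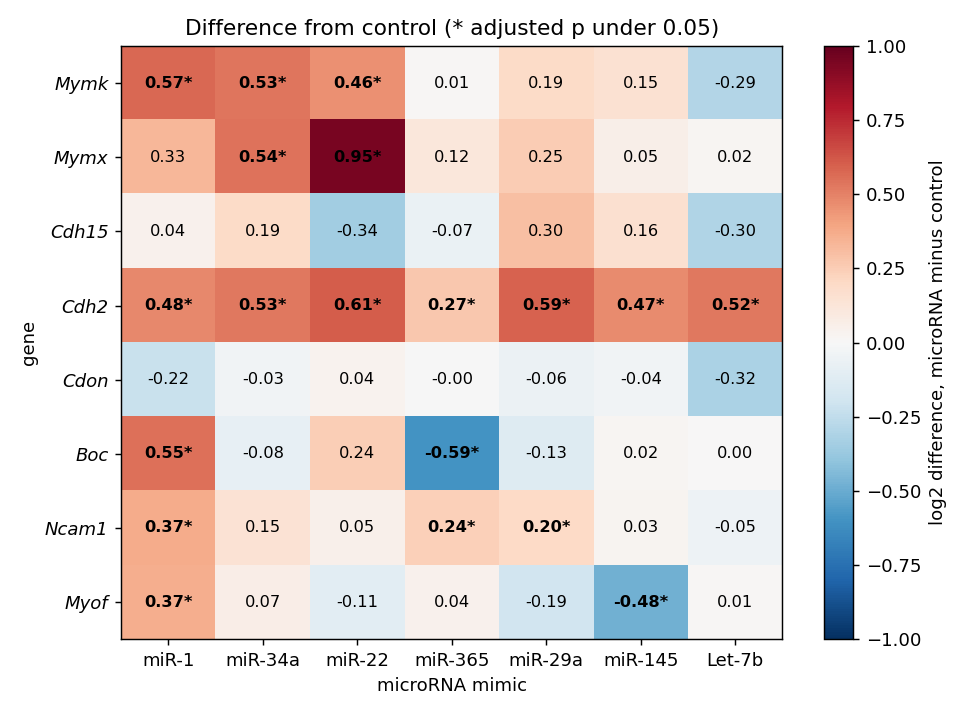
Log2 difference of each microRNA group mean (columns) from the control mean for each gene (rows), on a colour scale from −1 to 1; bold values with a star had a limma adjusted p under 0.05. The Cdh2 row passes throughout, from 0.27 under miR-365 to 0.61 under miR-22, and the miR-1 column holds 5 passed values.

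Mymk (probe set 10481175), the gene of the fusion protein myomaker, was higher under miR-1, miR-34a and miR-22. Its control values were 12.005, 12.03 and 11.79. They were 12.39, 12.62 and 12.52 under miR-1, 12.40, 12.59 and 12.44 under miR-34a, and 12.41, 12.37 and 12.42 under miR-22. All 9 of these values lay above all 3 control values. The rise was 1.48-fold under miR-1 (log2 0.57 ± 0.10 SE, limma adjusted p = 1.9e-04), 1.45-fold under miR-34a (0.53 ± 0.10, adjusted p = 0.00106) and 1.37-fold under miR-22 (0.46 ± 0.10, adjusted p = 0.00336). These 3 groups had overlapping values and lay above the miR-29a group next in order, whose values were 12.06, 12.19 and 12.14.

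The lowest Mymk group was Let-7b, with 11.35, 11.71 and 11.88. The range of these values overlapped the control, and the difference from the control did not pass (−0.29 ± 0.10, limma adjusted p = 0.0751). It did pass against the mean of the other 6 microRNAs (−0.61 ± 0.08, adjusted p = 5.2e-06). Under miR-365 the values of 11.96, 11.94 and 11.96 lay within the control range, and the group was below the mean of the other 6 (−0.26 ± 0.08, adjusted p = 0.0166). Under miR-145 Mymk stood at 11.90, 12.27 and 12.10, which overlapped the control. Against the mean of the other 6, Mymk was higher under miR-1 (0.40 ± 0.08, adjusted p = 4.1e-04), miR-34a (0.35 ± 0.08, adjusted p = 0.00304) and miR-22 (0.26 ± 0.08, adjusted p = 0.0232). The calls for miR-22 and miR-365 in this second comparison were lost without any 1 of that microRNA's own 3 replicates, with adjusted p of 0.09, 0.0631 and 0.117 for miR-22 and 0.0624, 0.0645 and 0.0634 for miR-365.

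Mymx (probe set 10451142), the gene of myomerger, the small partner of myomaker, was highest under miR-22. Its control values were 8.04, 8.24 and 7.91, and under miR-22 they were 8.98, 9.15 and 8.91. The lowest value under miR-22 exceeded the highest control value, and the rise was 1.94-fold (0.95 ± 0.18, limma adjusted p = 5.7e-04). Against the mean of the other 6 microRNAs the difference was 0.73 ± 0.13 (adjusted p = 4.0e-04). Under miR-34a Mymx had values of 8.48, 8.91 and 8.42, all above the control, and was 1.46-fold higher (0.54 ± 0.18, adjusted p = 0.0474). This second call was close to the threshold and was lost in 9 of 14 other settings: with adjusted p of 0.118, 0.0507 and 0.192 without control replicate 1, 2 or 3, and 0.0617, 0.255 and 0.0533 without miR-34a replicate 1, 2 or 3. It was also lost without the technical repeats (0.0501), after a further quantile normalization (0.0593) and without the variance trend (0.0503).

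The Mymx values under miR-1 were 8.17, 8.61 and 8.39, and their range overlapped that of the control. Those under miR-29a (8.04, 8.48 and 8.42), miR-365 (8.15, 8.27 and 8.11) and miR-145 (7.91, 8.29 and 8.15) overlapped it too. Under Let-7b the values of 7.56, 8.27 and 8.40 spread on both sides of the control range, with an SD of 0.45, the widest of the 8 groups. In the order of the 8 group means of Mymx, from miR-22 down to the control, each group overlapped the next.

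The 2 fusion genes did not follow the same order of groups. Mymk was highest under miR-1 and Mymx under miR-22. Over the 24 values their Pearson's r was 0.75, and it was 0.89 after group means were taken out, a description over samples of which 3 share each group. Muscle differentiation markers, a list of 14 genes that includes Myod1 and Myog, moved in several of the same groups. Under miR-1 and miR-34a 10 of 14 were higher and 1 lower, under miR-22 6 were higher, under miR-29a 4, and under miR-365 and miR-145 1 each. Under Let-7b 6 were lower. With the replicate number taken into the model, 7 passed under miR-29a and 4 under miR-365. The mean level of the list was 10.40 to 10.59 in the control, 10.84 to 11.23 under miR-1, 11.10 to 11.20 under miR-34a, 10.98 to 11.01 under miR-22 and 9.68 to 10.20 under Let-7b. It was 10.69 to 10.74 under miR-365 and 10.65 to 11.01 under miR-29a, above all control values although Mymk did not pass there, and 10.48 to 10.9996 under miR-145, which overlapped the control. Its part in the values of Mymk and Mymx was not tested.

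**Figure D3:**
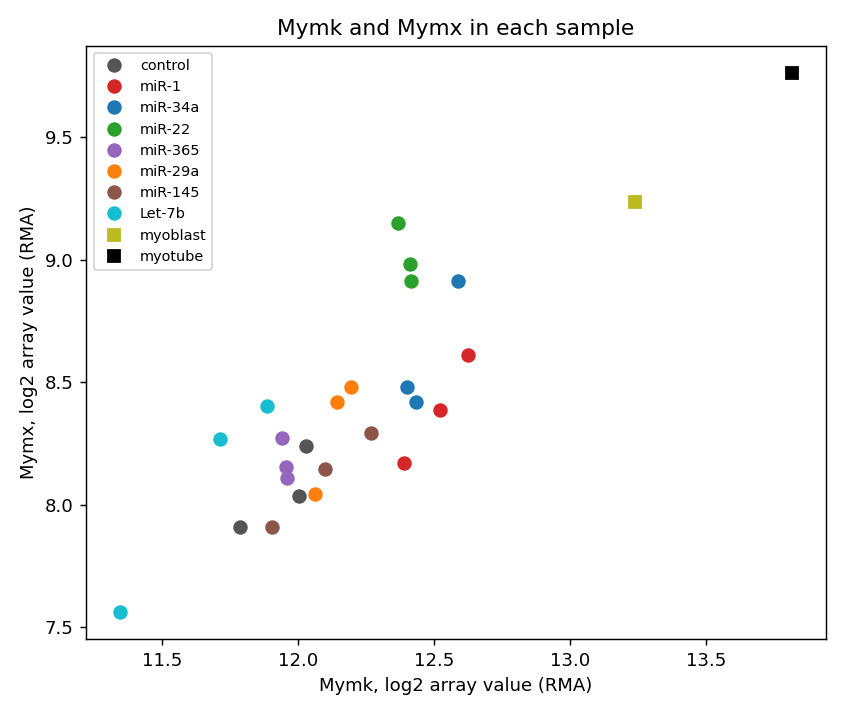
Log2 array value of Mymk (horizontal axis) against that of Mymx (vertical axis), with 1 circle for each transfected sample, coloured by group, and squares for the single myoblast and myotube arrays. The 3 miR-22 samples have a Mymx of 8.91 to 9.15 at a Mymk of 12.37 to 12.42, and the untransfected arrays lie at the upper right.

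Cdh15 (probe set 10576175) encodes M-cadherin, the cadherin of muscle precursor cells. Its control values were 11.53, 12.12 and 11.95, a spread wider than most differences between groups. The lowest group was miR-22, with 11.17, 11.85 and 11.54, and next to it Let-7b, with 11.37, 11.84 and 11.47. The highest was miR-29a, with 12.03, 12.33 and 12.12. All groups overlapped the control, and each overlapped the next in the order of the means. By limma 0 of 7 comparisons with the control passed, and 0 had an unadjusted p under 0.05, although the F test over the 7 did pass (adjusted p = 0.0449).

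Much of the spread of Cdh15 followed the replicate number. Replicate 2 was the highest of the 3 in 8 of 8 groups, on average 0.26 above its group mean, and replicate 1 was on average −0.22 from it. With a block for replicate number, a term that takes out what samples of the same number share, Cdh15 was lower under miR-22 (−0.34, limma adjusted p = 0.00436 against 0.277 without the block) and higher under miR-29a (0.30, adjusted p = 0.0159 against 0.443). Over all genes, the residuals of all 3 same-numbered pairs of either microRNA with the control correlated above 0.1. Blocked in this way, Cdh15 was also lower under Let-7b (−0.30, limma adjusted p = 0.0135 against 0.425), where the pairs had an r of 0.137, 0.082 and 0.120. The groups stood at 11.73, 12.29 and 12.14 under miR-34a, 11.93, 12.26 and 11.88 under miR-145, 11.86, 12.17 and 11.70 under miR-1 and 11.53, 12.08 and 11.79 under miR-365, and replicate 2 was the highest in each of these too.

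**Figure D4:**
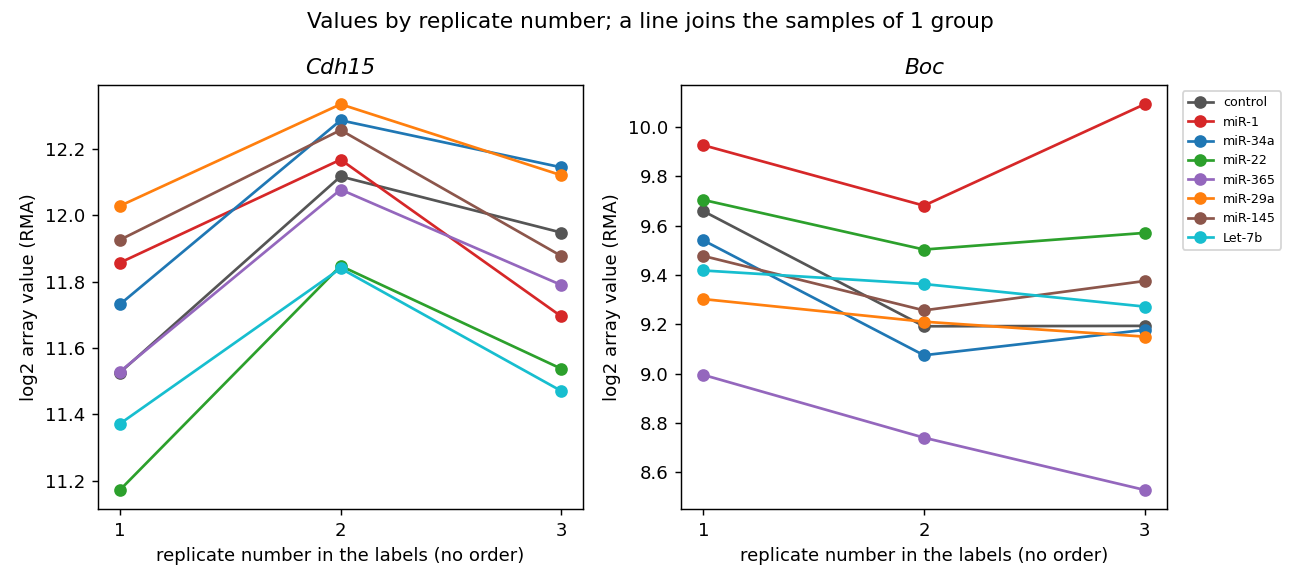
Log2 array value of Cdh15 (left) and Boc (right) by replicate number (horizontal axis), with a line joining the 3 samples of 1 group; the numbers are names and have no order. Replicate 2 of Cdh15 is the highest in all 8 groups, and replicate 1 of Boc is the highest in 7 of 8.

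The replicate number also went with other members. Replicate 2 was the highest in 7 of 8 groups for Mymx and Cdon, in 6 of 8 for Ncam1 and in 5 of 8 for Mymk. Replicate 1 was the highest in 7 of 8 groups for Boc and in 6 of 8 for Myof. Cdh2 had no such pattern, with the highest value in replicate 1 in 4 groups, replicate 3 in 3 and replicate 2 in 1.

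Cdh2 (probe set 10457644) encodes N-cadherin, which myoblasts carry alongside M-cadherin. It was higher than the control under all 7 microRNAs, and all 21 of these values lay above the 3 control values of 11.61, 11.43 and 11.46. They were 12.08, 12.09 and 12.15 under miR-22, 12.02, 12.10 and 12.14 under miR-29a, and 12.15, 11.94 and 11.98 under miR-34a. Under Let-7b they were 11.99, 11.98 and 12.10, under miR-1 12.003, 11.94 and 11.996, and under miR-145 11.96, 11.997 and 11.95. These 6 groups overlapped from each to the next, from a mean of 12.11 under miR-22 to 11.97 under miR-145. The miR-365 values of 11.90, 11.70 and 11.70 lay apart, below all of the miR-145 values and above all of the control.

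The rise of Cdh2 was 1.52-fold under miR-22 (0.61 ± 0.06, limma adjusted p = 6.7e-07) and 1.50-fold under miR-29a (0.59 ± 0.06, adjusted p = 1.6e-06). It was between 0.47 and 0.53 under miR-34a, Let-7b, miR-1 and miR-145, with adjusted p from 4.6e-06 to 5.4e-05, and 1.20-fold under miR-365 (0.27 ± 0.06, adjusted p = 0.00343). Against the mean of the other 6 microRNAs only miR-365 passed, in the lower direction (−0.26 ± 0.05, adjusted p = 2.2e-04). Since the 7 comparisons share the control, the 7 calls rest on the same 3 control values. The untransfected myoblast array, a further sample without a mimic, stood at 12.005, within the range of the mimic groups and above the control. This single array also differed from the control in its muscle differentiation markers, with a mean level of 11.78 against at most 10.59 in a control value. Whether the level of the control or that of the mimics sets the Cdh2 differences was not tested.

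Cdon (probe set 10584229) and Boc (probe set 10439612) encode related co-receptors of the immunoglobulin superfamily that form complexes with cadherins in muscle precursors and also bind Hedgehog proteins. Cdon gave no clear signal in any group. Its control values of 6.74, 6.82 and 6.70 were at the level of probe sets without a listed gene, and its group means ran from 6.43 under Let-7b to 6.79 under miR-22. By limma 0 of 7 comparisons with the control passed, and 1 had an unadjusted p under 0.05, that of Let-7b, with values of 6.26, 6.61 and 6.43. The values under miR-1 (6.57, 6.45 and 6.56) and Let-7b lay below the control values, and no fold is given because the level of background bounds them. The highest single value was 7.10, in miR-22 replicate 2.

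Boc differed in both directions. Its control values were 9.66, 9.19 and 9.19. Under miR-1 they were 9.93, 9.68 and 10.09, all above the control, and under miR-365 8.99, 8.74 and 8.53, all below it. Boc rose 1.47-fold under miR-1 (0.55 ± 0.14, limma adjusted p = 0.00379) and fell 1.51-fold under miR-365 (−0.59 ± 0.14, adjusted p = 0.00259). Both passed against the mean of the other 6 microRNAs, with 0.64 ± 0.10 (adjusted p = 4.2e-05) and −0.70 ± 0.10 (adjusted p = 1.9e-05). The miR-365 group was the lowest and lay below every value of the miR-29a group (9.30, 9.21 and 9.15) next to it.

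The other groups of Boc lay between these. Under miR-22 the values were 9.70, 9.50 and 9.57, above all 3 of miR-145 (9.48, 9.26 and 9.38) and overlapping those of miR-1. Under Let-7b they were 9.42, 9.36 and 9.27, and under miR-34a 9.54, 9.07 and 9.18. Each of these 4 groups overlapped the control.

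Ncam1 (probe set 10593293) was higher under 3 microRNAs. Its control values were 12.58, 12.48 and 12.39. They were 12.79, 12.95 and 12.81 under miR-1, 12.75, 12.68 and 12.72 under miR-365 and 12.63, 12.75 and 12.66 under miR-29a. All 9 of these values exceeded the highest control value, and all 3 of miR-1 exceeded those of miR-365. Ncam1 rose 1.29-fold under miR-1 (0.37 ± 0.06, limma adjusted p = 2.7e-05), 1.18-fold under miR-365 (0.24 ± 0.06, adjusted p = 0.00331) and 1.15-fold under miR-29a (0.20 ± 0.06, adjusted p = 0.0213). The call for miR-29a was lost in 5 of 14 other settings, with adjusted p of 0.064 and 0.157 without control replicate 2 or 3, 0.13 without miR-29a replicate 2, 0.0581 without the variance trend and 0.0616 with only miR-29a and the control in the model.

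Under miR-34a the values of Ncam1, 12.62, 12.68 and 12.59, also lay above the control. The difference of 0.15 ± 0.06 did not pass (limma adjusted p = 0.109), but it did once replicate number was blocked (adjusted p = 0.0311). The groups of miR-22 (12.51, 12.56 and 12.53), miR-145 (12.50, 12.59 and 12.44) and Let-7b (12.39, 12.52 and 12.37) overlapped the control. Against the mean of the other 6 microRNAs Ncam1 was higher under miR-1 (0.27 ± 0.04, adjusted p = 4.0e-05) and lower under Let-7b (−0.23 ± 0.04, adjusted p = 4.7e-04) and miR-145 (−0.13 ± 0.04, adjusted p = 0.0388). The miR-145 call was lost in 5 of 28 other settings, with adjusted p of 0.115 and 0.295 without miR-145 replicate 1 or 3, 0.0503 without miR-365 replicate 1, 0.0501 without miR-29a replicate 2 and 0.0824 without the variance trend.

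Myof (probe set 10467258) rose under miR-1 and fell under miR-145. Its control values were 12.01, 11.77 and 11.79. Under miR-1 they were 12.20, 12.11 and 12.37, all above the control, and under miR-145 11.56, 11.42 and 11.16, all below it. The rise was 1.29-fold (0.37 ± 0.09, limma adjusted p = 0.00516) and the fall 1.39-fold (−0.48 ± 0.09, adjusted p = 0.00213). Against the mean of the other 6 microRNAs miR-1 was higher by 0.47 ± 0.07 (adjusted p = 1.7e-05) and miR-145 lower (−0.51 ± 0.07, adjusted p = 2.5e-05). These groups stood apart from their neighbours in the order: all miR-1 values exceeded those of miR-34a (12.07, 11.78 and 11.94), and all miR-145 values lay below those of miR-29a (11.74, 11.66 and 11.61).

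The miR-29a values of Myof lay below all 3 control values without passing the test. Those of miR-365 (12.01, 11.77 and 11.92), Let-7b (11.89, 11.83 and 11.90) and miR-22 (11.81, 11.70 and 11.75) overlapped the control. Neither Myof nor Boc passed under miR-34a, miR-22, miR-29a or Let-7b.

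The myotube array was compared with the untransfected myoblast array to place the 8 genes in differentiation. With 1 array each, the differences have no replicate check. Of the 8 genes 6 were higher and 2 lower in the myotube array, and 0 of the 8 by 2-fold or more, where 2.71% of all genes were at least 2-fold higher and 2.01% at least 2-fold lower. Mymk went from 13.24 to 13.82 (1.49-fold), Mymx from 9.23 to 9.76, Cdh15 from 11.61 to 12.10, Cdh2 from 12.005 to 12.39 and Ncam1 from 12.97 to 13.34. Myof stood at 11.63 and 11.73. The Cdon values, 6.65 and 6.53, were near background. Boc went from 9.79 down to 9.18, a 1.52-fold difference. The median difference of the 8 genes was 0.38, and that of all genes −0.02.

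The untransfected myoblast array did not match the transfected control. Mymk was 1.30 and Mymx 1.17 log2 units higher in it than the control mean, and these were the only 2 of the 8 genes at least 2-fold apart, where 1.21% of all genes were at least 2-fold higher and 0.286% at least 2-fold lower. Cdh2 was 0.51, Ncam1 0.49 and Boc 0.44 higher, and Cdh15 lay at −0.26 and Myof at −0.23 from the control. Cdon was near background in both. The median difference was 0.46 for the 8 genes and 0.01 for all genes. The same array had a mean level of the 14 muscle differentiation markers of 11.78, against at most 10.59 in a control value and 12.44 in the myotube array. The mean of 5 proliferation markers was 10.93 in it, 11.42 in the control and 9.70 in the myotube array. The part of these marker levels in the differences was not tested.

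**Figure D5:**
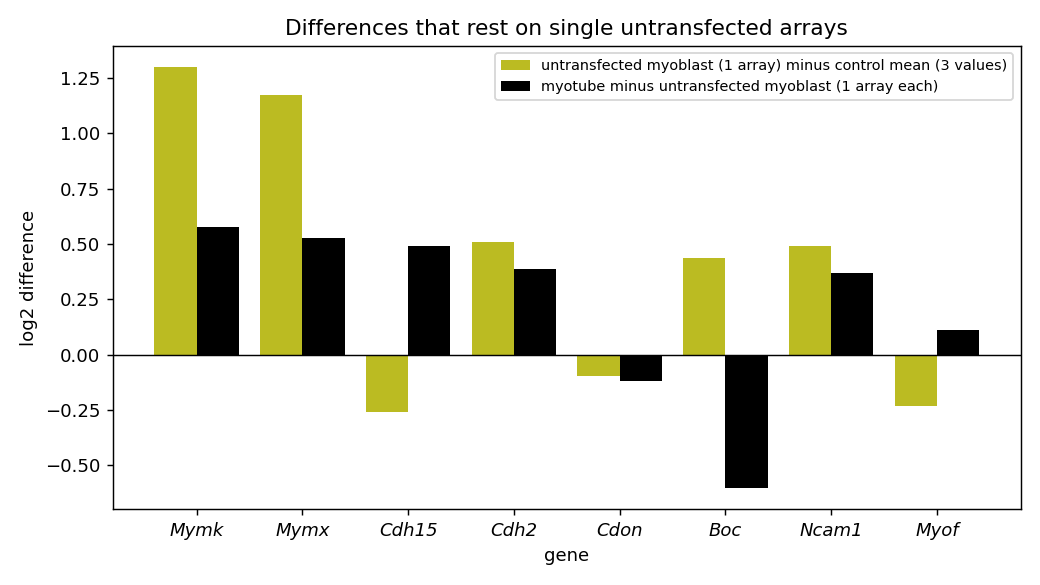
Log2 difference (vertical axis) for each gene between the untransfected myoblast array and the mean of the 3 control values (olive bars) and between the myotube and the myoblast array (black bars), without error bars because the untransfected cells had 1 array each. The olive bars of Mymk and Mymx exceed 1, and the black bar of Boc points down to −0.60.

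The cells carried the markers of myoblasts. All 14 muscle differentiation markers had group means above the background level in every group, and proliferation markers fell under miR-1 in 5 of 5, under miR-365 in 4 of 5 and under miR-34a and miR-22 in 3 of 5, which became 5 of 5 for miR-34a with the block. Of 5 markers of satellite cells or undifferentiated myoblasts, 4 were lower under miR-1 (median −0.42), 1 under miR-34a and 1 under Let-7b, 1 was higher under miR-29a, and 2 were higher and 1 lower under miR-365. Under miR-22 and miR-145 limma passed 0 of the 5, with 1 at an unadjusted p under 0.05 under each, and 1 passed under miR-22 with the block. Between the untransfected arrays 2 of the 5 were at least 2-fold lower in the myotube than in the myoblast array. The part of these markers in the values of the 8 genes was not tested. The mean level of 3 markers each of adipocytes, endothelial cells and leukocytes lay between 5.74 and 6.97 over the samples, and that of neurons and of Sox10, a gene of Schwann cells, between 6.96 and 7.67. In every group only 1 of the 3 neuron markers was at or under the background level, and Sox10 lay above it. The epithelial list lay between 6.66 and 7.59. In it the keratin gene Krt8 rose under miR-1 (1.70 ± 0.27, limma adjusted p = 4.1e-05, from 7.99 to 9.70), while the defining epithelial markers Epcam and Cdh1 were at 5.87 and 6.46 there, under the background level.

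Other genes of the same processes were counted in 6 lists that hold none of the 8 genes. Counts without the block, here and in the marker lists above, stand beside the shares of all genes without it. Of all genes 13.2% were higher and 10.5% lower under miR-1, 5.62% and 6.06% under miR-34a, and 8.82% and 5.67% under miR-22. The shares were 11.7% and 8.33% under miR-365, and 5.54% and 4.78% under miR-29a. They were 3.85% and 3.00% under miR-145, and 5.46% and 5.46% under Let-7b. The block raised the counts of all genes too, so blocked list counts stand beside blocked totals. With it 3385 of all genes passed under miR-34a, 4018 under miR-22, 5130 under miR-365 and 3142 under miR-29a. Without it these totals were 2330, 2888, 3997 and 2058. Of 22 measured genes of membrane fusion, repair and traffic, 11 were higher and 2 lower under miR-1 (median 0.19). Dysf, the gene of dysferlin, a ferlin of membrane repair, rose 2.18-fold under miR-1 (1.12 ± 0.15, limma adjusted p = 5.3e-06). Trim72, which patches membrane tears, rose 2.33-fold (1.22 ± 0.21, adjusted p = 1.2e-04), and Cav1, a caveolin gene, 1.60-fold (0.68 ± 0.16, adjusted p = 0.00274). These rises were not confined to miR-1. Dysf also passed as higher under miR-22 (0.58), miR-29a (0.57) and miR-145 (0.54), Trim72 under miR-34a (0.79) and miR-22 (0.80), and Cav1 under miR-145 (0.57). Under the other 6 microRNAs between 2 and 6 of the 22 passed. In the myotube array 3 of the 22 were at least 2-fold higher than in the myoblast array, Trim72 by 1.60 log2 units. Blocked by replicate number, 5 of the 22 passed under miR-365, against 3 without it.

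Of 25 measured ligands, partners and downstream genes of Cdon and Boc, 11 were lower and 2 higher under miR-1 (median −0.17). The Hedgehog pathway factor Gli3 fell 1.82-fold there (−0.87 ± 0.13, limma adjusted p = 2.8e-05). Under miR-34a 5 passed, all lower, among them the netrin gene Ntn1 (−0.80 ± 0.10, adjusted p = 3.7e-06), and under miR-365 3 were lower and 2 higher, among them the p38 kinase gene Mapk11, 2.13-fold lower (−1.09 ± 0.10, adjusted p = 5.2e-08). Between 2 and 4 passed under each of miR-22, miR-29a, miR-145 and Let-7b. Blocked in the same way, 8 passed under miR-34a, 8 under miR-365, 4 under miR-22 and 4 under miR-29a, against 5, 5, 2 and 2 without the block.

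Of 21 cadherin, catenin and nectin genes between 3 and 8 passed under each microRNA, 8 of them under miR-365 in equal numbers of 4 higher and 4 lower. Nectin1, an adhesion molecule beside cadherins, fell 2.12-fold under miR-34a (−1.09 ± 0.15, limma adjusted p = 2.2e-05), and Nectin2 rose under miR-22 (0.59 ± 0.10, adjusted p = 3.5e-04). Cdh10, another classical cadherin gene, rose 1.75-fold under miR-365 (0.81 ± 0.13, adjusted p = 5.7e-05), the microRNA under which Cdh2 rose least. Cdh10 also passed as higher under miR-29a (0.43), and Nectin1 as higher under Let-7b (0.59) and miR-365 (0.46).

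A list of cell recognition and integrin adhesion had 37 measured genes, with some of neither kind, such as Cxcr4, Il4ra, Fst and Nfatc3. Of the 37 genes 9 were higher and 6 lower under miR-1, and between 6 and 9 passed under each of the other 6. The integrin gene Itga4 rose 2.75-fold under miR-365 (1.46 ± 0.13, limma adjusted p = 1.8e-08) and Itga1 1.92-fold under miR-145 (0.94 ± 0.19, adjusted p = 0.00336). Itga4 also passed as higher under miR-22 (0.69), miR-145 (0.66) and miR-29a (0.62), and as lower under Let-7b (−0.52). Nfatc3, a transcription factor gene of muscle, fell 2.11-fold under miR-1 (adjusted p = 1.2e-09). The model with the block passed 12 under miR-34a and 12 under miR-365, against 7 and 6 without it, and 14 under miR-29a, against 9.

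Of 30 genes of actin remodelling 5 were higher and 7 lower under miR-1, against 13.2% and 10.5% of all genes. Between 4 and 7 passed under each of the other 6. The Wave complex genes among those named were lower, Wasf1 under Let-7b (−0.82 ± 0.13, limma adjusted p = 1.2e-04) and Wasf2 under miR-145 (−0.62 ± 0.13, adjusted p = 0.0053), and Arhgef7, a Rac exchange factor gene, was lower under miR-34a (−0.63 ± 0.08, adjusted p = 9.5e-06). The blocked model passed 12 under miR-22, against 7 without it, and 8 under miR-29a, against 4.

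Of 17 Ncam1 partners and enzymes of its sialylation 5 were higher and 2 lower under miR-1. St8sia2, which adds polysialic acid to Ncam1, rose there 1.68-fold (0.75 ± 0.21, limma adjusted p = 0.0107) and Fgfr1, a growth factor receptor that Ncam1 binds, 1.63-fold (0.71 ± 0.13, adjusted p = 1.5e-04). Prnp, the prion protein gene, rose under Let-7b (0.70 ± 0.14, adjusted p = 0.00176). Under miR-365 3 passed, under miR-22 2, and under miR-34a and miR-29a 1 each, all of them higher, and 5, 4, 4 and 2 with the block. Under miR-145 limma passed 0 of 17, and 2 had an unadjusted p under 0.05.

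The genes whose values were most like each member's over the 24 transfected values were taken from the 9969 genes with a mean at or above the median gene, as a description over samples of which 3 share each group. For Mymk they were Klhl41 (Pearson's r 0.95), Pdlim3 (0.94) and Smyd1 (0.93), genes of the muscle contractile apparatus or its assembly. For Mymx they were Mb, the myoglobin gene (0.88), Ankrd2 (0.87) and Mylpf, a fast myosin light chain gene (0.82). Cdh2 had Dhx32 (0.94), Prxl2a (0.88) and Prkg1 (0.86), and Cdh15 had St3gal5, Nt5dc2 and Tln2, from 0.85 to 0.86. Boc had Sfxn3, Card19 and Susd6, from 0.90 to 0.91, and Ncam1 had Plxna2, Cacng1 and Sec31a at 0.86 each. Myof had Anxa8, an annexin gene (0.94), Ddhd2 (0.91) and Rnh1 (0.91). For Cdon, whose values lay near background, r was at most 0.80, for Sap30, followed by Snrpe and Zfp825.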

How the data were processed

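Expression was measured on Affymetrix mouse gene arrays in 29 samples. The authors deposited log2 values, made with RMA in Expression Console 1.1 per the submitters' processing notes; a genome build and filters are not given in the sources used here. Of 35556 probe sets, 21789 carry 1 gene symbol in the platform annotation, 1621 several and 12146 none; 21698 symbols were checked through Entrez identifiers and 0 changed. Probe sets with several symbols were left out. The one with the highest mean stands for a gene (999 of 19938 genes have more than 1).

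Each control array was averaged with its technical repeat. The 24 values in 8 groups were fitted with limma 3.58.1 (R 4.3.3), with variances moderated along a trend; p-values are 2-sided and adjusted by Benjamini-Hochberg over all genes within each comparison, with a threshold of 0.05. Errors marked ± beside a difference are standard errors of this model. The model was tested on simulated data. RMA equalises the arrays, so a shift shared by all genes cannot be seen. Alternatives were the replicate number as a block, the technical repeats left out or kept as a random block, only the microRNA and control in the model, the lowest 40% of genes left out, a further quantile normalization, no variance trend, the mean of all probe sets of a gene, and each replicate left out.

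The labels say that the experiment was repeated. After group means were taken out, 75 of 84 pairs of same-numbered samples had an r over 0.1, and with the control all 3 pairs did for miR-22, miR-29a, miR-34a and miR-365; for these the blocked value is given where it changes a call or moves a count by over 1.5 times.

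All 8 genes are described whatever their result. From each list of related genes up to 3 are named, those with the largest difference from the control among genes that passed and whose 3 values lie on 1 side of the control. The members and lists were chosen with earlier results of these data known. Of the listed genes Ano5, Ptk2, Pak1, Cyfip1 and Actr2, among others, had no probe set of their own symbol alone. Mature sequences are from RefSeq.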

Additional observations from a re-analysis of the deposited data

How the results depend on the processing

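Of 19 calls of a gene against the control, 17 were kept under all 14 other settings, and of 14 calls against the mean of the other 6 microRNAs 11 were kept under 28; the 5 that were lost are given with the results, and none of the 33 changed direction or moved by over 1.5 times. The cause was not tested for the counts that moved. With the replicate block, genes called of the 8 against the other 6 were 2 for miR-34a, 6 for miR-22, 2 for miR-29a, 4 for miR-145 and 5 for Let-7b, and 4 for Let-7b against the control, where Mymk (adjusted p = 0.0221), Cdh15 (0.0135) and Cdon (0.0364) were added; all 24 values correlated best with their own number, a hint from the data and not from the design. Over all genes the block gave 3142 for miR-29a, 2444 for miR-145 and 3298 for Let-7b against the control. Without the lowest 40% of genes 5 of the 8 passed for miR-22 against the other 6. Without the variance trend 1 passed for miR-29a against the control and 1 for miR-145 against the other 6. With only the microRNA and control in the model 1 of the 8 passed for miR-29a, and 654 genes for miR-145. With technical pairs as a random block 2 passed for Let-7b (Mymk, adjusted p = 0.0347). Leaving out 1 replicate, members called ranged from 1 to 5 for miR-22, 0 to 1 for miR-29a and 1 to 3 for miR-145 against the other 6, and from 1 to 2 for miR-29a and for Let-7b against the control. All genes called against the control ranged from 1482 to 2012 for miR-34a, 1681 to 2670 for miR-22, 1330 to 2084 for miR-29a, 727 to 1410 for miR-145 and 1379 to 1932 for Let-7b; against the other 6, from 1509 to 3034 for miR-34a, 1732 to 3357 for miR-22, 2195 to 3538 for miR-29a and 2090 to 4013 for miR-145. The lowest of these counts came without replicate 3 of the microRNA, except for miR-29a against the control, without control replicate 3. Each gene had 1 probe set, so the choice of probe set could not change a member. Cdon near background, 3 values a group and 1 array for each untransfected state limit what can be seen.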
